A study of Mus musculus with 6 samples.

Results

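Rag1, Rag2, Dntt and Ptcra make and test the first rearranged antigen receptors of lymphocytes. They were chosen by gene symbol and matched to Ensembl IDs, and all 4 were found among the 47729 genes counted. Rag1 and Rag2 encode the subunits of the recombinase that cuts DNA at the recombination signals beside V, D and J segments. Dntt encodes TdT, a polymerase that adds bases to the cut ends without a template before end-joining proteins seal them. Ptcra encodes pre-T alpha, the chain that pairs with a newly made T-cell receptor beta chain to form the pre-T-cell receptor. In thymocytes Rag1, Rag2 and Ptcra are best known from the stages after DN1, when the beta locus is rearranged. B-cell precursors also use Rag1, Rag2 and Dntt.

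RNA was sequenced from DN1a/b thymocytes, an early stage not yet committed to the T lineage, sorted by flow cytometry from C57BL/6 mice. There were 2 libraries in each of 3 groups. In the RBPJ 6 days induced group mice first lacked RBPJ, and it was then switched back on for 6 days by doxycycline (an injection of a 2 mg/ml solution, then drinking water with 1 mg/ml). The RBPJ uninduced group is labelled as lacking RBPJ, the transcription factor that carries Notch signals to DNA, and the Control group kept it throughout. The labels do not give the alleles, the promoter behind the inducible RBPJ, the age of the mice, how many mice made a library and whether Control or uninduced mice received doxycycline. Where the induced group is compared, RBPJ and doxycycline as sources of a difference cannot be told apart. Nor do the labels tie the replicates to different animals. The p-values then reflect only how far libraries lay apart, which may be technical.

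Libraries held 5098927 to 12932928 counts, with Control replicate 2 and RBPJ uninduced replicate 1 the shallowest. Rbpj itself stood at 198.2 and 202.9 CPM (read counts scaled to a common, TMM-adjusted library total) in induced libraries, 28.2 and 30 CPM in uninduced libraries and 74.1 and 72.9 CPM in Control libraries. The induced mean was thus 272.9% and the uninduced mean 39.6% of the Control mean, so Rbpj counts remained in the group labelled as lacking RBPJ. Whether these reads come from outside a deleted part of the gene is not stated by the labels. Of 7 DN1 stage markers, the receptor Kit was at 371.7 to 631.3 CPM and the adhesion molecule Cd44 at 196.3 to 390.2 CPM in every library. The other 5 varied more. Flt3 was at 56.2 and 20.7 CPM in uninduced libraries and 88.3 to 176.3 CPM elsewhere, and Ccr9 at 1.56 and 2.01 CPM against 7.27 to 44.2 CPM. Cd24a was at 272.6 CPM in uninduced replicate 2 and 119.1 to 147.4 CPM elsewhere. Il7r (2.96 to 28.6 CPM) and Il2ra (0.522 to 38.5 CPM) were lowest in uninduced replicate 1. The 2nd libraries of 2 groups stood apart. Control replicate 2 carried RNA of later thymocytes: the 10 markers of such cells summed to 525.2 CPM there and to 23.6 to 60.5 CPM in the other libraries. RBPJ uninduced replicate 2 carried B-lineage RNA: the 13 B-lineage markers summed to 1566.1 CPM there and to 68.5 to 271.5 CPM elsewhere. All 13 were highest in that library. Ighm was at 643.5 CPM there and 32.3 to 264.3 CPM elsewhere, and made up most of the sum in induced and Control libraries. The sums therefore do not rank the other libraries by B-lineage RNA.

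Rag1 (ENSMUSG00000061311, mm10 chromosome 2, 101638282 to 101649501, minus strand) and Rag2 (ENSMUSG00000032864, chromosome 2, 101624718 to 101632529, plus strand) are neighbours that point towards each other, their annotated ends 5753 bases apart. Both lie within the span of B230118H07Rik, whose exons share 80 of the 6608 exon bases of Rag1 on the same strand and 208 of the 3424 exon bases of Rag2 on the opposite strand. Reads in those stretches cannot be assigned with certainty, and the overlapping gene itself held 43 to 107 counts per library. Dntt (ENSMUSG00000025014) lies on chromosome 19 from 41029275 to 41059525 on the plus strand, with Blnk, a B-cell adaptor, and Opalin as its nearest protein-coding neighbours. Ptcra (ENSMUSG00000036858) lies on chromosome 17 from 46755663 to 46763712 on the minus strand, between Cnpy3 and 2310039H08Rik. It also lies in the span of the long noncoding RNA Gm26904, with which it shares 0 exon bases.

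The 4 promoter windows, from 250 bases before to 50 bases after the RefSeq start (GRCm38.p6), are shown so that the motifs of the 4 genes can be compared. They are Rag1 at chr2:101649483-101649782 (minus strand), Rag2 at chr2:101624462-101624761 (plus), Dntt at chr19:41029025-41029324 (plus) and Ptcra at chr17:46763663-46763962 (minus), each printed along its gene. Capitals mark every match, on either strand, to CANNTG (the E-box letters bound by E proteins among others), TGGGAA (a core shared by RBPJ and Ikaros sites), AGATAA (letters bound by factors of the GATA family) or CTCANTCT (letters of an initiator element described for Dntt).
Rag1 promoter: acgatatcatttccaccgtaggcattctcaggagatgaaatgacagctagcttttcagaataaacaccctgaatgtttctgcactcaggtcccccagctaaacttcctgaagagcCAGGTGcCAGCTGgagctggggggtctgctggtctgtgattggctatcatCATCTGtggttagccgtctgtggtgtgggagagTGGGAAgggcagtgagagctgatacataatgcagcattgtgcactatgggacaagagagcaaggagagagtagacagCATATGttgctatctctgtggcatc
Rag2 promoter: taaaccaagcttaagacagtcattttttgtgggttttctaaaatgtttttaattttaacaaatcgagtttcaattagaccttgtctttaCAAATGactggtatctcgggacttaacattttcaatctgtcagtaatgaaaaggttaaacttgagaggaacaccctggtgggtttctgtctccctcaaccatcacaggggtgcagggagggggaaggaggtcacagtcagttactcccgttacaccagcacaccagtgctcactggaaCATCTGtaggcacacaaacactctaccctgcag
Dntt promoter: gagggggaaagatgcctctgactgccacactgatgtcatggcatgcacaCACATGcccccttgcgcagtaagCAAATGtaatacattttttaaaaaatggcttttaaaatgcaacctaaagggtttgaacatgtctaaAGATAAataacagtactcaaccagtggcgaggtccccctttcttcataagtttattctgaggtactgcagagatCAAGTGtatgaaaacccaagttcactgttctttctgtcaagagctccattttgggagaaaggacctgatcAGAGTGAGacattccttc
Ptcra promoter: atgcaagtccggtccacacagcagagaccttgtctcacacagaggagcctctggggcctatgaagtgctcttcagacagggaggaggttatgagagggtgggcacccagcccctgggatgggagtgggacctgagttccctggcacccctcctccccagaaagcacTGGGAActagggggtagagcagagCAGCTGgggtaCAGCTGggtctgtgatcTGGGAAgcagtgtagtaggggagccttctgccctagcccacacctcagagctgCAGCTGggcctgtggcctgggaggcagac

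The Ptcra window held 2 copies of TGGGAA, at -84 and -32 relative to the transcription start, and the Rag1 window held 1, at -52. Neither the Rag2 nor the Dntt window held these letters, which are present in 25.6% of the 32851 promoter windows of this length. CANNTG was present 4 times in the Rag1 window, 2 times in that of Rag2 and 3 times in those of Dntt and Ptcra, against 72.3% of all windows with at least 1 copy. All 3 copies in the Ptcra window read CAGCTG. The GATA letters were found once, in the Dntt window at -112, and are present in 11.2% of windows. The Dntt window held CTCANTCT on the minus strand at 32 bases past the start (printed as AGAGTGAG), not at the start itself where the initiator is described, and 5.63% of windows hold it on either strand. No window of the 4 held TATAAA, found in 13.6% of windows. These are matches of letters and do not show binding.

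Dntt was the gene of the 4 that separated the groups most clearly. It stood at 250.4 and 242.8 CPM in RBPJ 6 days induced libraries, at 1.39 and 30.1 CPM in RBPJ uninduced libraries and at 953.2 and 696.4 CPM in Control libraries. The ranges of the 3 groups did not overlap, and the uninduced libraries were the lowest. The share of all genes without such overlap was not counted, so separation of 2 libraries from 2 is a description here and below. The means were 247 ± 5.34 CPM in induced, 15.7 ± 20.3 CPM in uninduced and 825 ± 181.5 CPM in Control libraries (SD, n = 2 each), so the induced mean was 29.9% and the uninduced mean 1.91% of the Control mean. By CPM among the 18174 genes tested, Dntt ranked 520 and 531 in the induced libraries, 13566 and 5511 in the uninduced libraries and 46 and 78 in the Control libraries. The 8 counts behind the lowest value have an exact Poisson 95% interval of 3.45 to 15.8 counts, which covers counting error only, while the other uninduced library had 270 counts. The 2 uninduced libraries thus differed 21.6-fold, far beyond counting error, and the higher of them is the one that carried B-lineage RNA. The part of that RNA in the Dntt level was not tested. Fewer cells of a type and less RNA per cell cannot be told apart in these bulk samples.

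**Figure D1:**
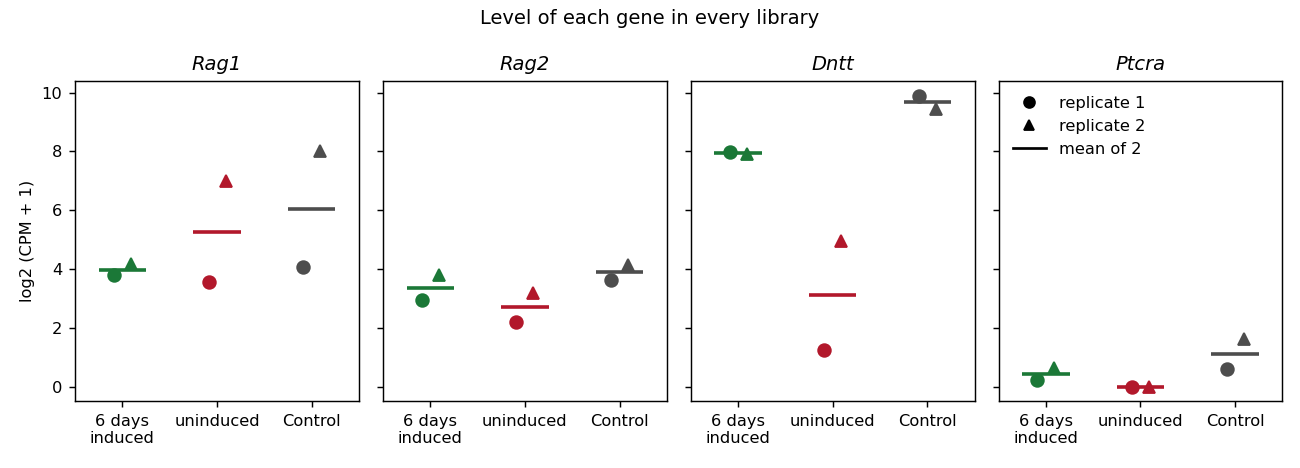
Level of the 4 genes in each library as log2 (CPM + 1), by group, with circles for replicate 1, triangles for replicate 2 and a bar at the mean of the 2 plotted values. Dntt separates the 3 groups, Rag1 is high in replicate 2 of the uninduced and Control groups, Rag2 lies between 3.65 and 16.8 CPM and Ptcra is close to 0.

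Between RBPJ uninduced and Control libraries Dntt fell, by a fitted log2 fold change of -5.65 (SE 0.875), which is 50.3-fold lower (edgeR quasi-likelihood test, adjusted p = 0.00769). Of all genes tested, 2.93% fell and 2.49% rose in this comparison, and 5.42% were called in either direction. Among the 533 genes that fell, 25 had a larger fitted change than Dntt. Between RBPJ 6 days induced and RBPJ uninduced libraries Dntt rose by 3.91 (SE 0.813), or 15-fold (adjusted p = 0.0465), where 1.55% of genes rose, 0.413% fell and 1.96% were called in either direction. With only the 4 libraries compared in the fit, neither call held (adjusted p = 0.0697 and 0.146, with fold changes of -5.70 and 3.95). Both calls held when any 1 library was left out, but the size depended on the uninduced libraries: without uninduced replicate 2 the changes were -9.22 and 7.47, and without uninduced replicate 1 they were -4.84 and 3.09.

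Against Control, Dntt in the induced libraries was at a log2 fold change of -1.74 (SE 0.725, unadjusted p = 0.0387, adjusted p = 0.884), with both induced libraries under both Control libraries. In that comparison 0.187% of genes were called, all of them higher in the induced group, so no gene was called lower by edgeR, while 281 were lower at an unadjusted p under 0.05 and DESeq2 called 49 lower. This Dntt difference passed in the fit of the 4 induced and Control libraries alone (-1.79, adjusted p = 0.00263). It also passed without uninduced replicate 1 (adjusted p = 6.77e-05) and without uninduced replicate 2 (adjusted p = 0.000115), fits in which the spread of the uninduced pair no longer enters. Whether the induced level is under that of Control therefore depended on how the spread was estimated. The 3 comparisons share libraries, so their values are not independent of each other.

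**Figure D2:**
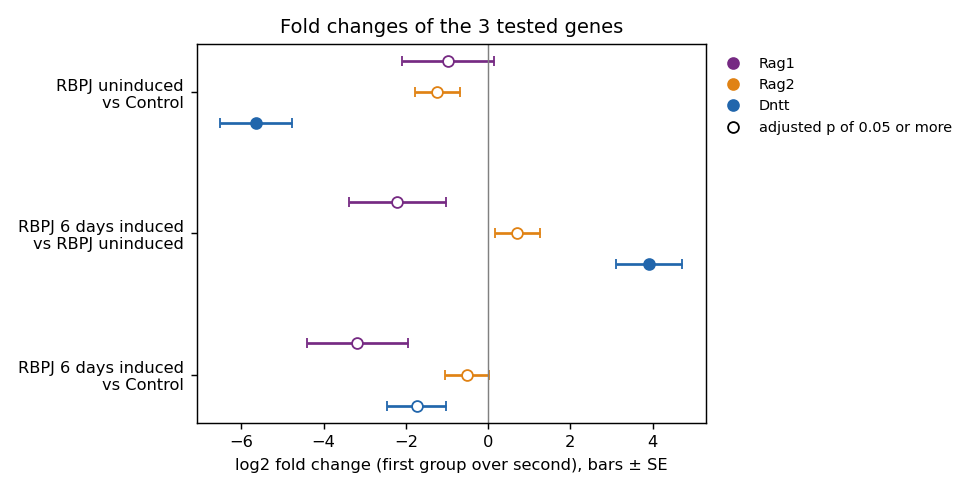
Fitted log2 fold changes of Rag1, Rag2 and Dntt in the 3 comparisons, first group over second, with bars of ± 1 SE and filled points for an adjusted p under 0.05. Only Dntt has filled points, at -5.65 for uninduced vs Control and 3.91 for 6 days induced vs uninduced.

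In the uninduced and Control groups Rag1 differed more between the 2 libraries of the group than between any group means. The induced libraries lay close together. It stood at 12.9 and 17.0 CPM in RBPJ 6 days induced libraries, at 10.8 and 126.4 CPM in RBPJ uninduced libraries and at 15.7 and 256.5 CPM in Control libraries. Replicate 2 was 1.32-fold above replicate 1 in the induced group, 11.7-fold in the uninduced group and 16.4-fold in Control. The other 4 libraries lay between 10.8 and 17.0 CPM whatever their group. The 2 high libraries are the ones with B-lineage and later thymocyte RNA, and both are cell types that use Rag1. Their part in the Rag1 level was not tested.

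No comparison called Rag1. Its log2 fold change was -0.97 (SE 1.12, adjusted p = 0.751) for uninduced vs Control, -2.21 (SE 1.18, adjusted p = 0.429) for induced vs uninduced and -3.18 (SE 1.22, adjusted p = 0.792) for induced vs Control (edgeR, n = 2 libraries a group). Leaving out 1 library turned the direction of the first 2 values, while the third stayed below 0 (-4.05 to -0.11). Without Control replicate 2 the first value was 2.01 and the third -0.11. Without uninduced replicate 2 the first was -3.62 (adjusted p = 0.0415), the second 0.48 and the third -3.14 (adjusted p = 0.0441). Without uninduced replicate 1 the second was -3.03 (adjusted p = 0.02) and the third -3.12 (adjusted p = 0.0237). These data therefore give no direction for Rag1 with or without RBPJ.

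Rag2 was low in every library. It stood at 6.71 and 12.9 CPM in RBPJ 6 days induced libraries, at 3.65 and 8.14 CPM in RBPJ uninduced libraries and at 11.4 and 16.8 CPM in Control libraries. Both uninduced libraries lay under both Control libraries, which with 2 libraries a group is a description only. The induced range overlapped those of both other groups. The group means were 9.78 ± 4.35 CPM in induced, 5.89 ± 3.17 CPM in uninduced and 14.1 ± 3.81 CPM in Control libraries (SD, n = 2 each). The difference between uninduced and Control had an unadjusted p of 0.0487 and did not pass over all genes (log2 fold change -1.24, SE 0.546, edgeR adjusted p = 0.262). Induced vs uninduced gave 0.71 (SE 0.542, adjusted p = 0.593) and induced vs Control gave -0.52 (SE 0.532, adjusted p = 1). The direction of all 3 values was the same under each alternative and without each library in turn, and none passed the threshold. Their sizes moved when 1 library was left out: uninduced vs Control lay between -1.95 without uninduced replicate 2 (adjusted p = 0.0523) and -0.83 without uninduced replicate 1. Induced vs uninduced lay between 0.25 without induced replicate 2 and 1.43 without uninduced replicate 2, and induced vs Control between -1.08 without induced replicate 2 and -0.10 without induced replicate 1.

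The 2 subunits of the recombinase did not keep one ratio. Per exon length, Rag1 over Rag2 was 0.995 and 0.683 in induced libraries, 1.53 and 8.05 in uninduced libraries and 0.712 and 7.91 in Control libraries. In replicate 2 of the uninduced and Control groups Rag1 was thus about 8 times as abundant as Rag2, and in the other 4 libraries the 2 genes were within 1.53-fold of each other. Rag2 was also higher in replicate 2 than in replicate 1 of each group, but by no more than 2.23-fold. Gene counts do not show where along Rag1 these reads fell.

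**Figure D3:**
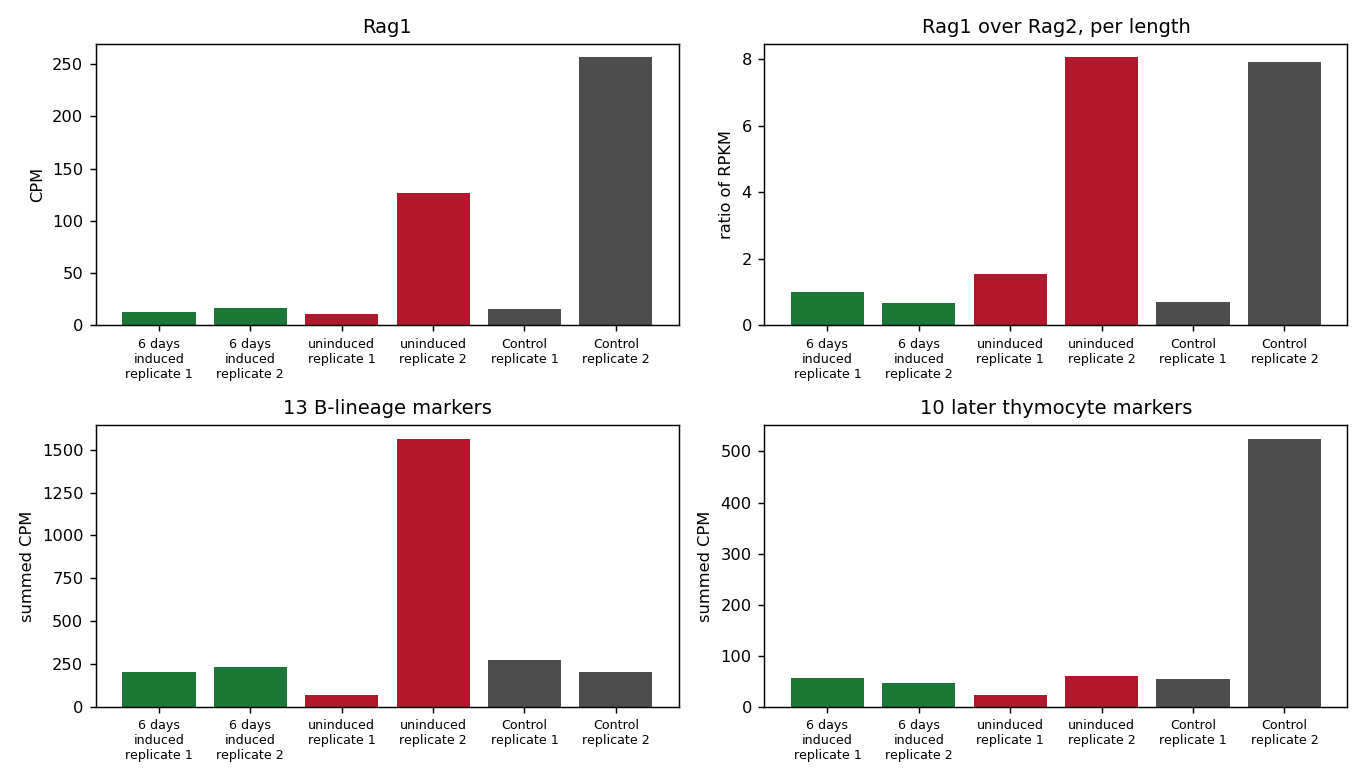
Rag1 in CPM, the ratio of Rag1 to Rag2 RPKM, and the summed CPM of 13 B-lineage and 10 later thymocyte markers, with 1 bar per library coloured by group. The 2 libraries with high Rag1 and a ratio near 8 are the uninduced one with 1566.1 CPM of B-lineage markers and the Control one with 525.2 CPM of later thymocyte markers.

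Ptcra was at the edge of detection. It had 2 and 6 counts in RBPJ 6 days induced libraries (0.177 and 0.559 CPM), 0 and 0 counts in RBPJ uninduced libraries and 7 and 12 counts in Control libraries (0.533 and 2.12 CPM). Both induced libraries had counts, neither uninduced library had any, and both Control libraries had counts. The low-count filter removed Ptcra, so 3 of the 4 genes were tested. The limit taken for a count of 0 was 3 counts, or 0.522 and 0.334 CPM in the 2 uninduced libraries. With that floor per library the mean was at least 3.1-fold lower in uninduced than in Control libraries. This bound covers counting error of the 0 counts only and takes the Control counts as exact, although their Poisson 95% intervals run from 2.81 to 14.4 and from 6.2 to 21 counts. The bound was 1.25-fold without Control replicate 2 and 4.96-fold without Control replicate 1. For induced vs uninduced no fold is given, because the induced mean of 0.368 CPM is itself under the mean floor of 0.428 CPM. Without the filter edgeR did not call Ptcra in any comparison (adjusted p = 0.651, 0.965 and 1).

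Levels of the 4 genes were compared with each other per exon length, as RPKM. In Control, Dntt was at 415.9 and 303.9 RPKM, Rag1 at 2.37 and 38.8 RPKM, Rag2 at 3.34 and 4.91 RPKM and Ptcra at 0.415 and 1.65 RPKM. The ratio of Dntt to Rag2 was therefore 55.7 and 28.2 in induced libraries, 0.569 and 5.53 in uninduced libraries and 124.7 and 61.9 in Control libraries. In uninduced replicate 1 Dntt was thus the lower, at 0.607 RPKM, against 1.07 RPKM for Rag2. Dntt, Rag2 and Ptcra had the same order of group means, with Control highest, induced next and uninduced lowest. For Rag2 and Ptcra the induced and Control ranges overlapped.

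The genes most like each member across the 6 libraries were found by Pearson correlation of log2 (CPM + 1) among 10362 genes whose average log2 CPM reached 2. These are descriptions over 6 libraries that share their groups. The best of 10362 genes over 6 libraries can reach a high r by the search alone. For Dntt they were Rasal3, a Ras GTPase-activating protein (r = 0.996), Limd2 (0.995) and the tetraspanin Cd82 (0.994). Rasal3 was at 141.3 and 147.0 CPM in induced, 53.5 and 88.0 CPM in uninduced and 171.6 and 173.4 CPM in Control libraries, the same order as Dntt over a much smaller range. For Rag1 they were Plpp5 (0.989), Abcb9 (0.988) and Naa20 (0.988), all highest in Control replicate 2 and next in uninduced replicate 2. For Rag2 they were Tbce, a tubulin-folding cofactor (0.987), Cnot2 (0.987) and Mcts2 (0.986). For Ptcra they were Pmvk (0.988), Cfap43 (0.981) and Atp8a2 (0.976). Every r of Ptcra, also with the other members, rests on 0 to 12 counts per library. Among the members, r was 0.85 between Dntt and Rag2, 0.83 between Ptcra and Rag2, 0.69 between Dntt and Ptcra, 0.55 between Rag1 and Rag2, 0.55 between Ptcra and Rag1 and 0.22 between Dntt and Rag1.

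Genes that repair RAG-cut ends were read beside the share called over all genes. Of 18 end-joining and break-response genes, all tested, 1 rose and 1 fell in uninduced vs Control. Of all genes tested, 2.49% rose and 2.93% fell there. None of the 18 was called by edgeR in induced vs uninduced or in induced vs Control, where 1.96% and 0.187% of all genes were called. In uninduced vs Control 5 were higher and 2 lower at an unadjusted p under 0.05, as were 3419 of the 18174 genes in all, and DESeq2 called 2 higher and 2 lower. At the same unadjusted p there were 2 higher and 4 lower in induced vs uninduced and 1 lower in induced vs Control. Over all genes 2807 and 940 were at that p, 1260 and 281 of them lower. DESeq2 called 1 end-joining gene higher and 2 lower in induced vs uninduced and 0 in induced vs Control. The list's median log2 fold change was 0.20 for uninduced vs Control, where the median of all genes tested was -0.02. It was -0.15 for induced vs uninduced, beside -0.03 over all genes, and -0.02 for induced vs Control, beside -0.02. Xrcc6, which encodes the Ku70 part of the DNA end-binding Ku dimer, fell by 1.09 on the log2 scale (SE 0.24, adjusted p = 0.0333). It stood at 68.3 and 108.7 CPM in uninduced libraries, against 201.7 and 175.3 CPM in Control libraries. Hmgb2, a DNA-bending protein that helps RAG bind its signals, rose by 0.96 (SE 0.222, adjusted p = 0.0391). The Xrcc6 call was lost without Control replicate 1 (adjusted p = 0.162), and the Hmgb2 call without either Control library, uninduced replicate 2 or induced replicate 2 (adjusted p = 0.0538 to 0.205).

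Polm encodes DNA polymerase mu, the closest relative of TdT, which fills in ends during joining. It stood at 0.883 and 1.96 CPM in induced libraries, 8.0 and 25.7 CPM in uninduced libraries and 0.457 and 3.71 CPM in Control libraries. Both uninduced libraries were above all others, the opposite of Dntt, but neither difference passed the threshold. The log2 fold change was 3.11 for uninduced vs Control (adjusted p = 0.112) and -3.57 for induced vs uninduced (adjusted p = 0.116). Uninduced replicate 2, the library with B-lineage RNA, was again the higher of its pair, and the part of that RNA was not tested.

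Some genes for chains of the pre-T-cell receptor, or for proteins that act just below it, fell without RBPJ. Of 12 such genes, called partners here, 11 were tested. In uninduced vs Control 4 fell and none rose, where 2.93% of all genes fell and 2.49% rose. They were Trbc1 and Trbc2 (T-cell receptor beta constant regions, near-identical copies that can share reads) and, below the receptor, the kinase Lck and the adaptor Lcp2. Trbc1 stood at 76.3 and 81.4 CPM in induced, 4.17 and 2.23 CPM in uninduced and 258.2 and 183.6 CPM in Control libraries. Lck stood at 75.7 and 91.1 CPM in induced, 3.3 and 10.7 CPM in uninduced and 114.3 and 112.5 CPM in Control libraries. The list's median log2 fold change was -2.66, beside -0.02 over all genes. The same 4 rose in induced vs uninduced, where 1.55% of all genes rose, with a list median of 1.39 beside -0.03. None was called in induced vs Control, where 10 of 11 fold changes were below 0. Trbc1 was nearest the threshold there (-1.49, SE 0.26, edgeR adjusted p = 0.0666). In that comparison 2 partners were lower at an unadjusted p under 0.05, as were 281 of the 18174 genes tested. DESeq2 called 2 partners lower. Lcp2 fell by 1.40 on the log2 scale (adjusted p = 0.0189) and rose by 1.35 (adjusted p = 0.0389). The rise of Lcp2 was not past the threshold without induced replicate 2 (adjusted p = 0.0744), and both Lcp2 calls were lost with unscaled totals (adjusted p = 0.0502 and 0.119). In fits of the 4 compared libraries neither Lcp2 call held (adjusted p = 0.101 and 0.13), nor did the rise of Lck (adjusted p = 0.0563). Of the CD3 chains, which carry the signal of the receptor, Cd3d was not tested, and in uninduced vs Control edgeR left Cd3e (-4.24, adjusted p = 0.0555) and Cd247 (-4.05, adjusted p = 0.0547) just short of the threshold and Cd3g at -2.66 (adjusted p = 0.265). Cd3e and Cd247 passed without any 1 library other than Control replicate 2, and without that library were at -1.51 (adjusted p = 0.585) and -3.01 (adjusted p = 0.292). DESeq2 called Cd3e (adjusted p = 0.00112) and 6 partners in all, and edgeR without the low-count filter called 9 of 12. Cd3e was at 4.24 and 5.40 CPM in induced, 1.04 and 0.892 CPM in uninduced and 2.59 and 34.5 CPM in Control libraries. Control replicate 2, with later thymocyte RNA, was the highest library for each of Cd3e, Cd3g, Cd3d and Cd247.

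**Figure D4:**
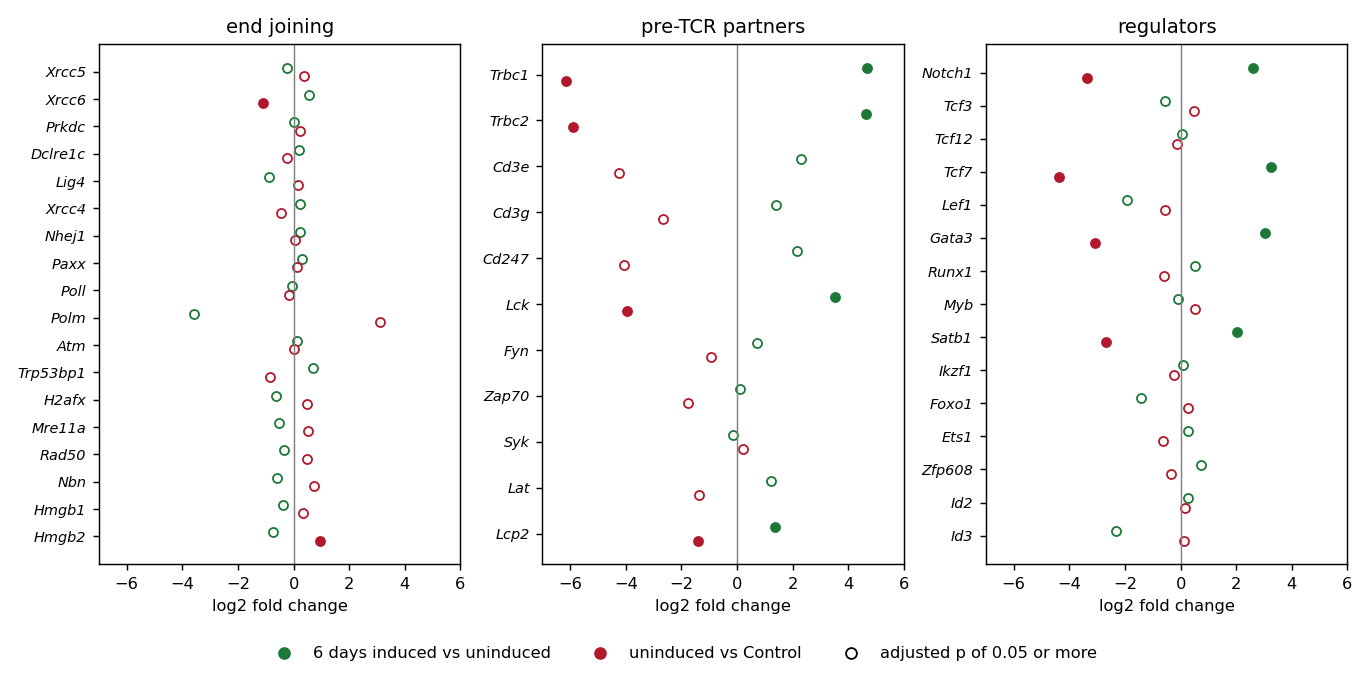
Log2 fold changes of the tested end-joining genes, genes of or just below the pre-T-cell receptor (partners) and transcription regulators, for 6 days induced vs uninduced and for uninduced vs Control. Filled points have an adjusted p under 0.05, and most end-joining genes lie near 0 while Trbc1, Trbc2, Lck, Notch1, Tcf7, Gata3 and Satb1 are filled on opposite sides in the 2 comparisons.

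The next list held 15 transcription regulators known to act on these genes in lymphocytes, or inhibitors of such regulators, and all were tested. Of these, 4 fell in uninduced vs Control and the same 4 rose in induced vs uninduced. None was called the other way in the edgeR fit of all 6 libraries. Of all genes, 2.93% fell in the first comparison and 1.55% rose in the second. DESeq2 called 1 regulator higher in uninduced vs Control, and in induced vs uninduced 2 were lower without the low-count filter and 4 without uninduced replicate 1. The 4 genes were the receptor Notch1, the T-lineage factors Tcf7 and Gata3, and the chromatin organiser Satb1. Notch1 stood at 519.7 and 483.6 CPM in induced, 97.7 and 68.8 CPM in uninduced and 923.6 and 781.5 CPM in Control libraries. Tcf7 stood at 175.4 and 212.8 CPM in induced, 13 and 27.4 CPM in uninduced and 360.7 and 479.6 CPM in Control libraries. Satb1 stood at 298.6 and 313.6 CPM in induced, 69.5 and 79.4 CPM in uninduced and 394.3 and 575.8 CPM in Control libraries, with log2 fold changes of -2.70 (adjusted p = 0.00044) and 2.04 (adjusted p = 0.00337). The Gata3 calls were lost in fits of the 4 compared libraries (adjusted p = 0.0571 and 0.0761). No regulator was called in induced vs Control in the edgeR fit of all 6 libraries. At an unadjusted p under 0.05 in that 6-library fit 1 was higher and 4 were lower. Over all 18174 genes tested 940 were at that p, 281 of them lower. DESeq2 called 3 regulators lower. Medians over the list were -0.35 and 0.26, beside -0.02 and -0.03 over all genes. The E proteins Tcf3 and Tcf12, which bind CANNTG, were not called: Tcf12 was at -0.13 (adjusted p = 0.855) and 0.06 (adjusted p = 0.94). Tcf3 was at 0.47 (adjusted p = 0.48) and -0.57 (adjusted p = 0.44), with 273.7 CPM in uninduced replicate 2 and 125.5 to 154.3 CPM in the other libraries. Ikzf1, which encodes Ikaros, was at -0.22 (adjusted p = 0.689) and 0.09 (adjusted p = 0.901). Foxo1, a regulator of Rag transcription in B-lineage cells, was at 49.1 CPM in uninduced replicate 2 and 38.4 CPM in Control replicate 2, the 2 libraries with high Rag1, and at 10.2 to 13.9 CPM in the others. Lef1, Ets1 and Id3 of the same list were also highest in those 2 libraries. Lef1 was at 32.9 and 59.6 CPM against 4.57 to 10.6 CPM in the others, and Ets1 at 88.4 and 112.2 CPM against 15.1 to 70.6 CPM. Id3, listed as an inhibitor of E proteins, was at 16.6 and 13.3 CPM against 0 to 3.18 CPM.

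Markers of other cells and of the stage moved as follows. Of all genes, 2.49% rose and 2.93% fell in uninduced vs Control. In induced vs uninduced 1.55% rose and 0.413% fell, and in induced vs Control 0.187% were called. These shares are at the adjusted threshold. At an unadjusted p under 0.05 in the edgeR fit there were 3419 of the 18174 genes tested in uninduced vs Control, 1598 of them lower. There were 2807 such genes in induced vs uninduced (1260 lower) and 940 in induced vs Control (281 lower). In the edgeR fit of all 6 libraries no B-lineage or later thymocyte marker was called in either comparison with the induced group. At an unadjusted p under 0.05, 8 of 11 tested B-lineage markers were lower in induced vs uninduced, and none either way in induced vs Control. Of the 10 later thymocyte markers 2 were higher in induced vs uninduced and 6 lower in induced vs Control at that p. DESeq2 called 1 B-lineage marker lower in induced vs uninduced and 2 later thymocyte markers lower in induced vs Control. Without the low-count filter 10 B-lineage markers were lower in induced vs uninduced, and without uninduced replicate 1 there were 12. Later thymocyte markers lower in induced vs Control numbered 5 without the filter, 4 without Control replicate 1 and 2 without either uninduced library. In uninduced vs Control 1 of 11 tested B-lineage markers rose, Cd79a of the B-cell receptor (5.49, adjusted p = 0.0435), at 6.09 and 75.3 CPM in uninduced libraries and 0.228 and 1.95 CPM in Control libraries. All 11 fold changes were above 0, and 9 were higher at an unadjusted p under 0.05. The count past the adjusted threshold, 1 in this fit, was 3 by DESeq2 and 9 in edgeR without the low-count filter. Without uninduced replicate 1 the log2 fold change of Cd79a was 6.40, and without uninduced replicate 2 it was 2.57. The Cd79a call was lost without uninduced replicate 2, Control replicate 1 or Control replicate 2 (adjusted p = 0.276, 0.143 and 0.0698). Surrogate light chain genes Igll1, Vpreb2 and Vpreb3 had no counts in uninduced replicate 1, but Vpreb1 was at 1.56 CPM there, against 0.0932 to 0.533 CPM in induced and Control libraries, and Pax5, Ebf1, Cd79a and Ms4a1 at 4.52 to 6.09 CPM. Uninduced replicate 2 had 13.4 CPM of Igll1, 1.78 CPM of Vpreb2 and 29.0 CPM of Vpreb3. Of 10 later thymocyte markers, 8 were lower at an unadjusted p under 0.05 in uninduced vs Control. Counted past the adjusted threshold, 7 fell by DESeq2 and 9 in edgeR without the low-count filter. These counts lean on Control replicate 2, where the 10 markers summed to 525.2 CPM, against 53.2 CPM in Control replicate 1. By the edgeR fit 2 fell, the costimulatory receptor Cd28 (-3.21, adjusted p = 0.0169) and Cd5 (-2.04, adjusted p = 0.0343), neither of them past the threshold without Control replicate 2 (adjusted p = 0.106 and 0.156). Leaving out Control replicate 1 or induced replicate 1 also took Cd5 out of the calls (adjusted p = 0.098 and 0.0538).

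Of 11 plasmacytoid dendritic cell markers, listed because that lineage can also express Dntt and Ptcra, Tlr7 fell without RBPJ (-3.02, adjusted p = 0.0147, and adjusted p = 0.0761 without Control replicate 1) and rose on induction (3.54, adjusted p = 0.0159). No other marker of this list was called in the edgeR fit of all 6 libraries. In uninduced vs Control 6 of the 11 fold changes were above 0 and 5 below, with a median of 0.25 beside -0.02 over all genes. There 2 were higher and 3 lower at an unadjusted p under 0.05, and DESeq2 called 1 higher and 3 lower. Over all 18174 genes tested 3419 were at that p, 1598 of them lower. In induced vs uninduced 7 were above 0 and 4 below (median 0.46 beside -0.03), with 4 higher and 2 lower at that p. Over all genes 2807 were at that p there, 1260 of them lower. The 11 markers summed to 411.4 and 415.2 CPM in induced, 231.1 and 327.7 CPM in uninduced and 355.4 and 314.9 CPM in Control libraries. Tcf4 (105.7 to 162.9 CPM) and Runx2 (21.7 to 153.6 CPM) made up a large part of these sums. In uninduced replicate 2 Spib was at 82.1 CPM, against 0 to 2.42 CPM elsewhere, and Ly6d at 23.1 CPM, against 2.26 to 9.75 CPM. The sums therefore do not rank the libraries by plasmacytoid dendritic cell RNA. The lineage marker Siglech was at no more than 1.95 CPM in any library. Of 7 DN1 stage markers, the chemokine receptor Ccr9 (-4.09, adjusted p = 0.00422) and Cd44 (-0.89, adjusted p = 0.0188) fell in uninduced vs Control, where 2.93% of all genes fell. Cd44 was not past the threshold when Control replicate 1 (adjusted p = 0.124) or induced replicate 1 was left out (adjusted p = 0.0503). Calls of Cd79a, Cd28, Cd5, Tlr7, Cd44, Xrcc6 and Hmgb2 were all lost in fits of the 4 compared libraries alone (adjusted p = 0.064 to 0.138). The cytokine receptor Flt3 was just short of the threshold in the edgeR fit. It was at -1.75 (adjusted p = 0.0525) in uninduced vs Control and at 2.09 (adjusted p = 0.0501) in induced vs uninduced. Irf7, an interferon regulator used by plasmacytoid dendritic cells, was at 2.33 (adjusted p = 0.263) and Cd8b1 of the later thymocyte list at -4.17 (adjusted p = 0.3) in induced vs Control. Il2ra, the receptor chain that appears at the next stage, when beta rearrangement begins, was at 29.0 and 38.5 CPM in induced, 0.522 and 23.5 CPM in uninduced and 30.2 and 15.9 CPM in Control libraries.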

How the data were processed

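The authors deposited raw read counts, whole numbers per Ensembl gene ID, in 1 file per library. Per the submitters' processing notes the tools were HISAT2, StringTie and HTSeq and the build was mm10, with no version or role stated. Strand handling and annotation are not stated there. GENCODE M21 (GRCm38, equal to mm10) gave symbols, coordinates and exon lengths and held 47310 of the 47729 IDs. Promoters came from RefSeq (GRCm38.p6), with all 4 members matched.

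The test was edgeR 4.0.16 (R 4.3.3), quasi-likelihood, on all 6 libraries with group means, leaving 3 residual degrees of freedom. Of all genes, 18174 passed filterByExpr (count 10, total 15), and TMM factors were 0.824 to 1.13. It assumes a shared spread, although chi-square per degree of freedom between replicates was 17.4 in induced, 56.7 in uninduced and 20.3 in Control. P-values were adjusted by Benjamini-Hochberg over every gene tested, with a threshold of 0.05. SE is the log2 fold change divided by the square root of F. RPKM is CPM per kilobase of merged exons. The code was tested on simulated data.

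The 4 members and 7 lists (86 entries) were chosen with earlier results of these data known. Genes were named by rule: members, the 3 smallest p-values past the threshold per list and comparison (1 where none passed), and the 3 most alike. Other list genes (Cd3e, Cd3g, Cd3d, Cd247, Lcp2, Gata3, Tcf3, Tcf12, Ikzf1, Foxo1, Lef1, Id3, Ets1, Pax5, Ebf1, Ms4a1, Ighm, Vpreb1, Igll1, Vpreb2, Vpreb3, Siglech, Tcf4, Runx2, Spib, Ly6d, Il2ra, Il7r, Cd24a, Kit) were named after their values were seen. Alternatives were DESeq2 1.42.0, other scalings, no filter, 4-library fits, a replicate block and omission of single libraries.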

Additional observations from a re-analysis of the deposited data

How the results depend on the processing

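Dntt kept its direction in the 3 comparisons under every alternative run. Leaving out each library in turn gave -9.22 to -4.84 for uninduced vs Control, 3.09 to 7.47 for induced vs uninduced and -1.99 to -1.45 for induced vs Control. With the 4 compared libraries alone Dntt was at -5.70 and 3.95, not past the threshold, and at -1.79 for induced vs Control, now past it. Without the low-count filter the prior degrees of freedom of the fit became infinite (6.35 with it), and Rag1 was past the threshold at -0.93, -2.15 and -3.09 and Dntt at -1.73 in induced vs Control. Those calls rest on a spread assumed equal for genes of like abundance, with no part taken from the gene itself. For Rag1 the leave-one-out values ran from -3.62 to 2.01, from -3.03 to 0.48 and from -4.05 to -0.11 in the same order of comparisons. Where a lone library was left in a group, it was assumed to vary like the others. Ptcra could be tested only without the filter (-6.57, 4.83 and -1.74, none past the threshold) or without any 1 library other than Control replicate 2.

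The number of genes called was 985, 357 and 34 in the 3 comparisons. DESeq2 called 1859, 1238 and 228, no filter gave 1540, 989 and 304, and 4-library fits gave 219, 71 and 177. Leaving out a library gave 445 to 2000, 171 to 1374 and 30 to 337. With the replicate number as a block the counts were 1147, 534 and 108 and Dntt was at -5.96, 4.18 and -1.79, with no member's call changed. The block called 2 end-joining genes higher and 2 lower, 7 partners lower, 6 B-lineage markers higher and 5 later thymocyte markers lower in uninduced vs Control, and 5 B-lineage markers lower in induced vs uninduced. Same-numbered libraries share only a number: their deviations from group means correlated at -0.041 to 0.025. Where a cause is not stated it was not tested.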
